A study of Mus musculus with 9 samples.

Results

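A set of 8 genes of the cardiac thin filament was examined in RNA sequencing of mouse heart tissue: the cardiac actin gene Actc1, the troponin genes Tnnt2, Tnni3, Tnnc1, Tnni1 and Tnnt1, and the tropomyosin genes Tpm1 and Tpm2. They were taken by symbol from the deposited expression table, which lists 21989 gene symbols, and all 8 were present. All animals were males of the inbred strain C57BL/6J, 18 to 20 weeks old, and each group held 3 mice. LD mice had the TAC operation and received Lingguizhugan decoction, a traditional herbal mixture. TAC mice had the same operation and received distilled water, and Sham mice had a sham operation and received distilled water. TAC is not spelled out in the labels; the usual meaning is transverse aortic constriction, an operation that raises the pressure against which the left ventricle pumps. The labels name no genetic change, and neither the dose nor the length of treatment was stated in them. Values are FPKM, fragment counts corrected for gene length and sequencing depth, so levels can be compared between genes per length. The labels speak of biological repeats and name no operation or sequencing batch, and p-values measure the spread between these samples only.

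The thin filament is a polymer of actin along which tropomyosin lies as a coiled strand, with a troponin complex on each tropomyosin. Troponin C binds calcium, troponin I holds the filament in the blocked state when calcium is low, and troponin T ties the complex to tropomyosin; calcium binding lets tropomyosin shift so that myosin can attach. In rodent heart muscle, fetal life is marked by slow skeletal troponin I (Tnni1), which gives way to cardiac troponin I (Tnni3) after birth, and skeletal actin (Acta1) is a well-known companion of cardiac actin that increases under pressure load.

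The libraries held 7414304 to 18042033 fragments in LD, 8388732 to 14849470 fragments in TAC and 14496717 to 18079383 fragments in Sham hearts, as recovered from the steps of the FPKM values. On the first principal component, which carried 29.4% of the variance, LD replicate 3 lay at 48.3 and TAC replicate 3 at -51, with the other 7 libraries between -10.4 and 17.1. Recovered low counts were mostly even numbers in 4 libraries, TAC replicates 2 and 3 and Sham replicates 1 and 3 (87.3% to 91.2% even), against 47.8% to 55.6% in the other 5, which include every LD library. This technical split is not named in the labels. Differences within it are given below for Tnni3, and in the closing section for members whose direction reversed within it. The other differences, the gene lists and the marker sums are not split by it. The scale of the recovered totals was chosen by agreement with annotated gene lengths. Whether each fragment was counted 2 times in the mostly even libraries was not tested. If so, their totals would be 9039692 and 7430284 in Sham replicates 1 and 3 and 7424735 and 4472280 in TAC replicates 2 and 3. The TAC and Sham ranges above would change with them. Defining cardiomyocyte markers were high in every library, with the 7 of the list summing to 26079 to 31572 FPKM in LD, 19316 to 25982 FPKM in TAC and 26802 to 29917 FPKM in Sham hearts.

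Among the genes of adult actin and the 3 adult troponin subunits, the TAC values of cardiac troponin I lay apart from both other groups, and those of actin, troponin T and troponin C overlapped them. The bases before the RefSeq start of these 4 genes (build GRCm38.p6) are shown because they are the start regions of genes of 1 filament. Whether the levels of these genes differed from each other in pattern was not tested, and none of them was called in limma. Capitals mark matches to a CArG box in Actc1, to the MCAT box CATTCC in Tnnt2 and Tnnc1, and to the GATA box AGATAA in Tnnt2; a match on the other strand appears as its reverse complement. The Tnni3 and Actc1 runs were shortened to the bases outside exons annotated in GENCODE M21.
Tnni3 (chr7:4522529-4522694, minus strand): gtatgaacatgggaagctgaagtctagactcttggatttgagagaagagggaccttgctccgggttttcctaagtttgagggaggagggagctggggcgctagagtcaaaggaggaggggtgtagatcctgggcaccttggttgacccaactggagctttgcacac
Tnnt2 (chr1:135836084-135836333, plus strand): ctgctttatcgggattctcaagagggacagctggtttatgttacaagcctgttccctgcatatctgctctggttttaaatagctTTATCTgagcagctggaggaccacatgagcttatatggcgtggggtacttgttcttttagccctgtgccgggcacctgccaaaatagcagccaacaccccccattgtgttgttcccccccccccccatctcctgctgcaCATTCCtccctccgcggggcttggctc
Tnnc1 (chr14:31208062-31208311, plus strand): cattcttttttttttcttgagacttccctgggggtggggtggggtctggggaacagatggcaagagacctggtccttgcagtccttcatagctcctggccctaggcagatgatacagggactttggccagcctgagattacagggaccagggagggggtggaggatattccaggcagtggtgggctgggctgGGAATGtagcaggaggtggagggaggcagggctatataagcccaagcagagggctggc
Actc1 (chr2:114052888-114053125, minus strand): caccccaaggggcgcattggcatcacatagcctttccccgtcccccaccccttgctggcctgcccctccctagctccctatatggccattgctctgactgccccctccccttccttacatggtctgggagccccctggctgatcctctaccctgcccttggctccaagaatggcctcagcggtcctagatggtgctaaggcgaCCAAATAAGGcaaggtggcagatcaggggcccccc

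All 8 genes matched the RefSeq promoter table, with 10 windows, and the 250 bases before each start were searched on both strands for a CArG box, a MEF2 box, the MCAT box CATTCC, the GATA box AGATAA and the TATA box TATAAA. No matches overlapped except that the CArG box of Actc1, at positions -47 to -38, reads as a match on both strands. The MCAT box was found in Tnnt2 at -27 to -22, in Tnnc1 at -58 to -53 and in Tpm1 at -56 to -51. The GATA box of Tnnt2 lay at -166 to -161, and the only match to TATAAA was in Tnnt1 at -30 to -25. For the MCAT, GATA and TATA boxes only the exact letters given were searched, so close variants were not counted. Of the same-length windows of all genes, 1.47% held a CArG box, 2.92% a MEF2 box, 12.6% an MCAT box, 9.99% a GATA box and 12.4% a TATA box. No MEF2 box was found in any of the 10 windows, and the windows of Tnni3, Tpm2 and Tnni1 and the other window of Tnnt2 held none of the 5 motifs.

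Cardiac troponin I, the inhibitory subunit of the adult heart, had the clearest separation. Tnni3 (chr7:4518305-4524229, minus strand) was at 8022, 7643 and 10642 FPKM in LD hearts, at 5823, 5836 and 6338 FPKM in TAC hearts and at 8566, 9379 and 7578 FPKM in Sham hearts. All 3 TAC hearts lay below all 3 LD hearts and all 3 Sham hearts, whose ranges overlapped each other. The group means were 8769 ± 1633 FPKM in LD, 5999 ± 294 FPKM in TAC and 8508 ± 902 FPKM in Sham hearts (SD, n = 3 each).

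The log2 difference of Tnni3 was -0.50 ± 0.22 (SE) for TAC against Sham, with a 95% interval of -0.97 to -0.03, and 0.53 ± 0.22 for LD against TAC, with an interval of 0.07 to 1.0. Neither passed the test across all genes: limma's adjusted p was 0.903 for TAC against Sham (unadjusted 0.0375) and 0.537 for LD against TAC (unadjusted 0.028). Between LD and Sham the log2 difference was 0.03 ± 0.22, with an interval of -0.43 to 0.50. The moderated F test over the 3 groups gave an unadjusted p of 0.0491 and an adjusted p of 0.734 in limma. Both separated comparisons use the same 3 TAC hearts, so they are not independent of each other.

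A separation of this kind was not rare. Of the 11380 genes tested, TAC and Sham did not overlap in 9.84%, with TAC lower in 4.62%, and LD and TAC did not overlap in 11.9%, with LD higher in 3.73%. TAC lay below both other groups without overlap in 158 genes, 1.39% of those tested, and Tnni3 was the only 1 of the 7 tested thin filament genes among them. In limma the TAC against Sham difference of Tnni3 was -0.58 to -0.43 when each library was left out in turn, and the LD against TAC difference was 0.39 to 0.62. The unadjusted p in limma was not stable at 0.05: of the alternative fits it was under 0.05 in 13 of 20 for LD against TAC (0.00989 to 0.13) and in 11 of 21 for TAC against Sham (0.00792 to 0.373). Without TAC replicate 3 and LD replicate 3 together they were -0.54 and 0.43. Within the mostly even libraries the TAC against Sham difference was -0.41, and within the other libraries it was -0.69 with 1 mouse on each side. The LD against TAC difference within those other libraries was 0.57, with 1 TAC mouse. With the even or mixed counting class as a term, LD against TAC was 0.48 ± 0.29 (limma's unadjusted p 0.122) and TAC against Sham -0.50 ± 0.24 (limma's unadjusted p 0.0551).

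**Figure D1:**
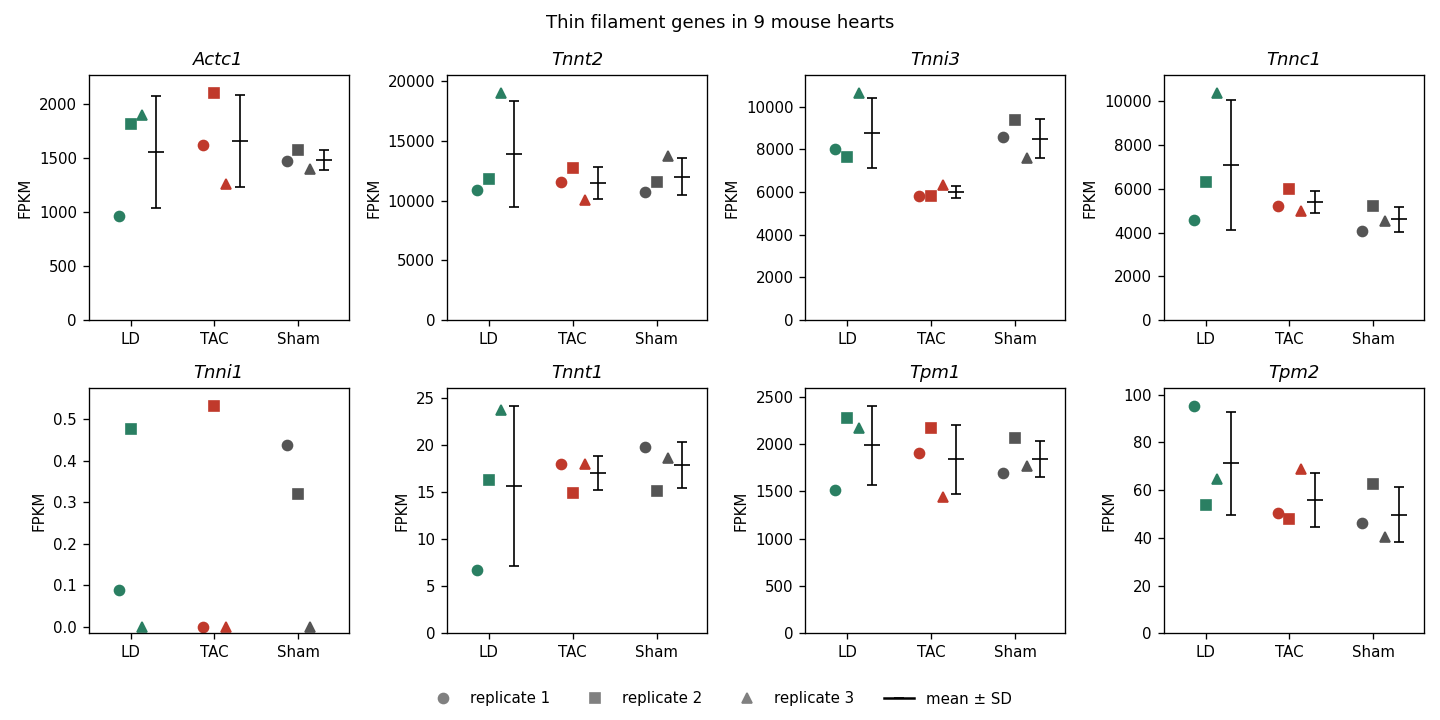
FPKM of the 8 thin filament genes in each heart, with LD, TAC and Sham from left to right; each point is 1 mouse, the bar beside the points is the group mean ± SD (n = 3), and Tnni1 has no bar because several hearts are at 0. The 3 TAC hearts lie between 5823 and 6338 FPKM for Tnni3, below every other heart, while LD replicate 3 is the highest heart for Tnnt2, Tnni3, Tnnc1 and Tnnt1.

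Summed markers of cardiomyocytes and of fibroblasts also set the TAC hearts apart. The summed cardiomyocyte markers were lower in all 3 TAC hearts than in every LD and Sham heart (the ranges above). The gap was narrow, with 25982 FPKM in TAC replicate 1 against 26079 FPKM in LD replicate 1. Only 1 of the 7, the adult myosin gene Myh6, was lower in this way by itself, as were 1.39% of all genes tested. Within TAC, replicate 3 had the lowest sum (19316 FPKM) but the highest Tnni3 (6338 FPKM). None of the endothelial, smooth muscle or erythroid markers had TAC apart from both other groups. The 5 fibroblast markers summed to 328 to 456 FPKM in LD, 485 to 1025 FPKM in TAC and 290.4 to 394 FPKM in Sham hearts, and 3 of the 5 (Dcn, Pdgfra and Tcf21) were above both other groups in every TAC heart, as were 2.28% of all genes tested. Divided by the summed cardiomyocyte markers, Tnni3 was 0.308, 0.273 and 0.337 in LD, 0.224, 0.228 and 0.328 in TAC and 0.32, 0.314 and 0.274 in Sham hearts, and all groups overlapped. The part of cell composition in the Tnni3 values was not tested, and in whole tissue fewer cells of a type and less RNA per cell cannot be told apart. One other gene, Dnaaf3, has exons that overlap Tnni3 on the same strand in GENCODE M21; it was at 1.05 to 1.75 FPKM in LD, 1.7 to 6.66 FPKM in TAC and 1.26 to 2.87 FPKM in Sham hearts.

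Troponin T, the subunit that anchors the complex to tropomyosin, was the highest of the 8 genes per length in each of the 9 hearts. Tnnt2 (chr1:135836354-135852260, plus strand) was at 10892, 11833 and 19032 FPKM in LD, at 11568, 12783 and 10099.6 FPKM in TAC and at 10758, 11594 and 13715 FPKM in Sham hearts. The groups overlapped in every comparison, and LD replicate 3 was far above the other 8 hearts. The log2 difference was 0.24 ± 0.25 for LD against TAC (interval -0.30 to 0.78), -0.07 ± 0.25 for TAC against Sham (interval -0.60 to 0.47) and 0.17 ± 0.25 for LD against Sham (interval -0.37 to 0.71). Without LD replicate 3 the LD against TAC difference was -0.01, so its direction rested on that heart. For LD against Sham it was -0.075 without that heart. The same heart was the highest of the 9 for the atrial markers Myl7, Myl4 and Sln, whose part in the Tnnt2 and Tnnc1 values was not tested.

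Troponin C is the calcium-binding subunit of heart and slow muscle. Tnnc1 (chr14:31208312-31211729, plus strand) was at 4569, 6284 and 10371 FPKM in LD, at 5216, 5976 and 4997 FPKM in TAC and at 4055, 5215 and 4522 FPKM in Sham hearts. LD replicate 3 was again the highest heart, Sham replicate 1 the lowest, and the groups overlapped in every comparison. The largest of its log2 differences was 0.55 ± 0.28 for LD against Sham, with an interval of -0.05 to 1.14 and an adjusted p of 0.875 in limma; without LD replicate 3 it was 0.23, and without LD replicate 1 it was 0.82 (limma's unadjusted p 0.00994, adjusted p 0.521). The difference was 0.31 ± 0.28 for LD against TAC (interval -0.28 to 0.91; -0.006 without LD replicate 3 and 0.585 without LD replicate 1) and 0.23 ± 0.28 for TAC against Sham (interval -0.36 to 0.83).

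Because the 3 subunits join in equal numbers in the protein complex, their transcript ratios within each heart were also looked at; these ratios were chosen after the values were seen and carry no test. The ratio of Tnni3 to Tnnc1 was 1.76, 1.22 and 1.03 in LD, 1.12, 0.977 and 1.27 in TAC and 2.11, 1.8 and 1.68 in Sham hearts. All 3 TAC hearts lay below all 3 Sham hearts, and LD hearts spanned the range between, overlapping both. The ratio of Tnnc1 to Tnnt2 was 0.419, 0.531 and 0.545 in LD, 0.451, 0.467 and 0.495 in TAC and 0.377, 0.450 and 0.330 in Sham hearts, so that TAC lay just above Sham without overlap. For Tnni3 over Tnnt2 the ranges were 0.559 to 0.736 in LD, 0.457 to 0.628 in TAC and 0.553 to 0.809 in Sham hearts, which overlap. Actc1 over Tpm1, Tnnt2 over Actc1, Tnnt2 over Tpm1 and Tnni3 over the cardiomyocyte marker Mb were also computed. These ratios overlapped in every comparison. Among single genes tested, TAC and Sham did not overlap in 9.84%, so a separation of 3 against 3 hearts was not rare. Set against Myh6, the adult heavy chain of the thick filament, Tnni3 was at 1.94 to 2.35 in LD, 2.18 to 2.61 in TAC and 2.18 to 2.39 in Sham hearts, with no separation. Myh6 was itself lower in every TAC heart than in both other groups, and its pattern was the nearest to Tnni3 (Pearson r 0.961). A separation of this ratio was therefore unlikely from the choice of Myh6.

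**Figure D2:**
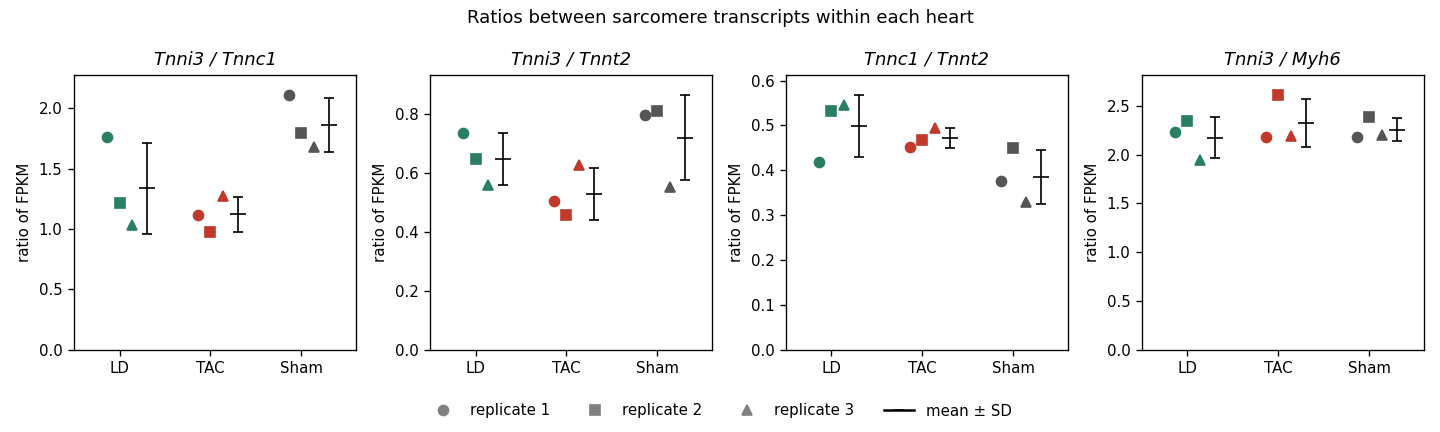
Ratios of FPKM within each heart for Tnni3 over Tnnc1, Tnni3 over Tnnt2, Tnnc1 over Tnnt2 and Tnni3 over Myh6, with LD, TAC and Sham from left to right; points are mice and bars are the group mean ± SD (n = 3). Tnni3 over Tnnc1 is 0.977 to 1.27 in TAC against 1.68 to 2.11 in Sham hearts. Tnni3 over Myh6, the gene nearest to Tnni3 in pattern, overlaps in every comparison.

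Cardiac actin forms the backbone of the filament. Actc1 (chr2:114047282-114053548, minus strand) was at 962, 1817 and 1898 FPKM in LD, at 1617, 2101 and 1256 FPKM in TAC and at 1468, 1576 and 1395 FPKM in Sham hearts. The Sham hearts lay close together inside the wider LD and TAC ranges. Its log2 difference was -0.12 ± 0.28 for LD against TAC (interval -0.72 to 0.48), 0.13 ± 0.28 for TAC against Sham (interval -0.47 to 0.74) and 0.01 ± 0.28 for LD against Sham (interval -0.59 to 0.61). The direction of the LD against TAC difference depended on scaling, at 0.02 with median-of-ratios scaling.

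Skeletal actin, the sarcomeric partner of cardiac actin and not one of the 8 genes, had larger log2 differences from Sham than any of them, in TAC and in LD hearts alike. Acta1 was at 660.2, 595 and 1341 FPKM in LD, at 377, 980.4 and 1475 FPKM in TAC and at 133, 195 and 99.1 FPKM in Sham hearts. Its share of the summed Acta1 and Actc1 FPKM was 40.7%, 24.7% and 41.4% in LD, 18.9%, 31.8% and 54.0% in TAC and 8.29%, 11% and 6.63% in Sham hearts. Every LD and every TAC heart had a larger share than every Sham heart, while LD and TAC overlapped. Muscle actins are close in coding sequence, and how fragments that match several of them were counted was not stated.

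Tropomyosin 1, the main tropomyosin of the heart, showed the smallest spread of the 8 genes, with a coefficient of variation of 16% over the 9 hearts. Tpm1 (chr9:67022590-67049406, minus strand) was at 1509.9, 2277 and 2166 FPKM in LD, at 1906, 2164 and 1444 FPKM in TAC and at 1694, 2061 and 1766 FPKM in Sham hearts. No group stood apart. The log2 difference was 0.11 ± 0.24 for LD against TAC (interval -0.40 to 0.62), -0.02 ± 0.24 for TAC against Sham (interval -0.53 to 0.49) and 0.09 ± 0.24 for LD against Sham (interval -0.42 to 0.60).

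Tropomyosin 2, the beta form that is abundant in skeletal and smooth muscle, was a minor transcript. Tpm2 (chr4:43514711-43523765, minus strand) was at 95.2, 53.6 and 64.8 FPKM in LD, at 50.5, 48.0 and 68.7 FPKM in TAC and at 46.3, 62.7 and 40.3 FPKM in Sham hearts. LD replicate 1 was the highest heart and Sham replicate 3 the lowest, and the groups overlapped. The log2 difference was 0.32 ± 0.27 for LD against TAC (interval -0.25 to 0.90), 0.17 ± 0.27 for TAC against Sham (interval -0.41 to 0.74) and 0.49 ± 0.27 for LD against Sham (interval -0.09 to 1.07, adjusted p 0.875 in limma). Without LD replicate 1 the difference was 0.096 for LD against TAC and 0.263 for LD against Sham, and without TAC replicate 3 it was 0.009 for TAC against Sham. Leaving out other single libraries raised it to at most 0.506, 0.672 and 0.342 in the same order of comparisons. The 0.672 was without LD replicate 2 (limma's unadjusted p 0.0427, adjusted p 0.924). In the alternatives that left out no single library, LD against Sham was 0.14 to 0.614. Smooth muscle markers summed to 279 to 412 FPKM in LD, 173 to 323 FPKM in TAC and 234 to 274 FPKM in Sham hearts, highest in LD replicate 1 as Tpm2 was; their part in the Tpm2 values was not tested.

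**Figure D3:**
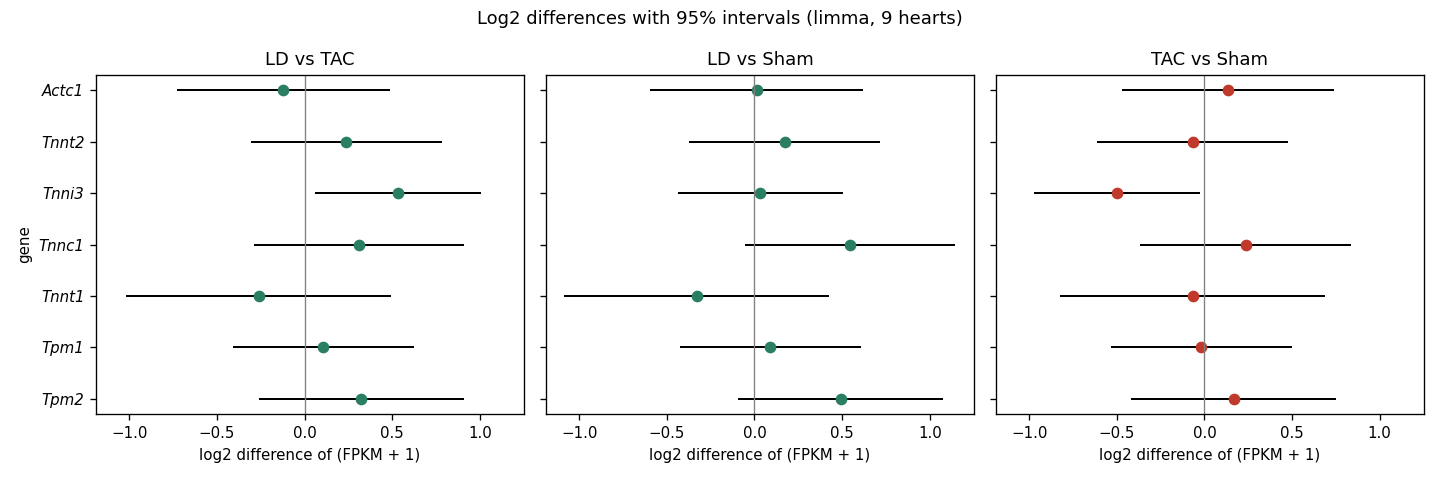
Log2 differences of (FPKM + 1) with 95% intervals from limma for the 7 tested thin filament genes, in the panels LD against TAC, LD against Sham and TAC against Sham; points are estimates and lines are intervals. The intervals that leave out 0 are those of Tnni3 for LD against TAC (0.07 to 1.0) and for TAC against Sham (-0.97 to -0.03), before any adjustment over genes.

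The slow skeletal forms were scarce in all groups. Slow troponin T, Tnnt1 (chr7:4504570-4516382, minus strand), was at 6.75, 16.3 and 23.7 FPKM in LD, at 18.0, 14.9 and 18.0 FPKM in TAC and at 19.8, 15.1 and 18.6 FPKM in Sham hearts. The LD hearts held both the highest and the lowest value of the 9, and the groups overlapped. Its log2 difference was -0.26 ± 0.35 for LD against TAC (interval -1.01 to 0.49; 0.21 without LD replicate 1), -0.07 ± 0.35 for TAC against Sham (interval -0.82 to 0.68) and -0.33 ± 0.35 for LD against Sham (interval -1.08 to 0.42; 0.14 without LD replicate 1). The Tnnt1 share of troponin T FPKM was at most 0.184% in any heart.

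Slow skeletal troponin I, the fetal form in the heart, was near the limit of detection. Tnni1 (chr1:135779434-135810989, plus strand) had 1, 13 and 0 fragments in LD hearts, 0, 12 and 0 fragments in TAC hearts and 12, 7 and 0 fragments in Sham hearts, at most 0.533 FPKM. No fragment was counted in 1 LD heart, 2 TAC hearts and 1 Sham heart, where a count of 0 allows up to 0.124, 0.221 to 0.236 and 0.133 FPKM of Tnni1, taking 3 fragments as the limit for counting error alone. TAC replicates 2 and 3 and Sham replicates 1 and 3 are mostly even libraries, and whether each fragment was counted more than once in them was not tested; if it was counted 2 times (an alternative chosen after seeing the data), their fragment counts would be smaller and the limits at 0 would be 0.443 FPKM in TAC replicate 3 and 0.267 FPKM in Sham replicate 3. Because it did not reach 1 FPKM in any heart it was left out of the main limma test. In the fit without that filter its log2 difference was 0.02 ± 0.22 for LD against TAC, -0.10 ± 0.22 for TAC against Sham and -0.08 ± 0.22 for LD against Sham. No difference between groups was detectable at this depth.

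The balance of each fetal, skeletal or slow form against its adult cardiac partner was tested within hearts for 4 pairs, with an exact two-sided permutation test whose smallest possible p for 3 against 3 mice is 0.1. The log2 ratio of Acta1 to Actc1 was higher by 2.54 in LD than in Sham hearts and by 2.44 in TAC than in Sham hearts, each without overlap and each with the smallest exact p of 0.1, or 0.4 when adjusted over the 4 pairs. Between LD and TAC that ratio differed by 0.10 (exact p = 1.0). For Tnnt1 over Tnnt2 the difference was -0.50 in LD against TAC (exact p = 0.3), -0.002 in TAC against Sham (exact p = 1.0) and -0.50 in LD against Sham (exact p = 0.3). For Tpm2 over Tpm1 the differences were 0.22 (exact p = 0.6), 0.18 (exact p = 0.9) and 0.40 (exact p = 0.5) in the same order of comparisons. The ratio of Tnni1 to Tnni3 differed by -0.51, 0.40 and -0.11 with exact p-values of 0.3, 0.2 and 0.8; with Tnni1 near 0 it mostly followed Tnni3 and the added value of 1.

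**Figure D4:**
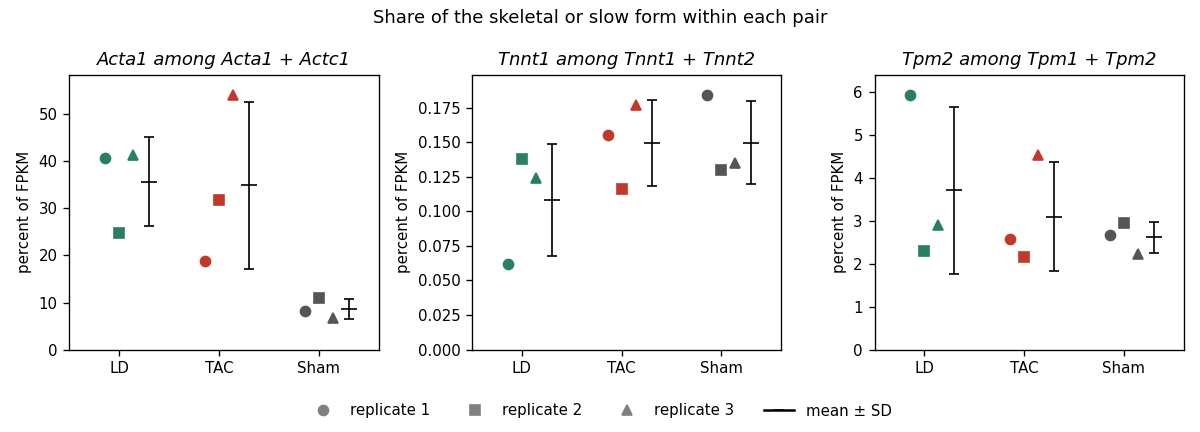
Percent of FPKM taken by the skeletal or slow form within each heart for Acta1 among Acta1 and Actc1, Tnnt1 among Tnnt1 and Tnnt2, and Tpm2 among Tpm1 and Tpm2, with LD, TAC and Sham from left to right; points are mice and bars are the group mean ± SD (n = 3). The Acta1 share is 24.7% to 41.4% in LD and 18.9% to 54.0% in TAC hearts, against 6.63% to 11% in Sham hearts, and the other pairs overlap.

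Counted over the filament, limma called 0 of the 7 tested genes, 0% of all genes, in each of the 3 comparisons at an adjusted p under 0.05. At an unadjusted p under 0.05 the count was 1 of 7 (Tnni3) for LD against TAC, where 8.82% of all genes passed, 1 of 7 (Tnni3) for TAC against Sham, where 5.43% passed, and 0 of 7 for LD against Sham, where 5.11% passed. With the counting class as a term, 340, 570 and 296 of the 11380 genes passed at an unadjusted p under 0.05 in those comparisons. Without that term they numbered 1004, 618 and 581. Voom on the recovered fragments also called no thin filament gene, with 0, 4 and 3 genes called in all in those comparisons. The groups did not overlap for 1 of 7 genes in LD against TAC, 1 of 7 in TAC against Sham and 0 of 7 in LD against Sham. The shares over all genes tested were 11.9%, 9.84% and 13.2%. The median log2 difference of the 7 genes was 0.24 for LD against TAC, -0.02 for TAC against Sham and 0.09 for LD against Sham, beside -0.10, 0.00 and -0.11 over all genes tested. Median-of-ratios scaling moved the median over all genes to 0.01 for LD against TAC, and Tnni3 was then at 0.68.

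Together the 8 genes took 4.93%, 5.13% and 7.40% of all FPKM in LD, 4.79%, 5.09% and 5.14% in TAC and 5.03%, 5.49% and 5.48% in Sham hearts. LD replicate 3 stood above the other 8 hearts. Across the 9 hearts the pattern of log2 values was most alike for Actc1 and Tpm1 (Pearson r 0.886) and for Tnnt2 and Tnnc1 (r 0.824), and least alike for Tnnt1 and Tpm2 (r -0.647). These correlations are descriptions over 9 libraries of 3 groups and include the libraries that stand apart. Tnni3 followed no other member closely, with its highest r, 0.488, to Tnnt2.

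Among all genes tested, the patterns nearest to Tnni3 over the 9 libraries were those of Myh6 (Pearson r 0.961), Clybl (0.943) and Tmed1 (0.943). Nearest to Tnnt2 were Aurkaip1 (0.985), Tmod1 (0.950) and Pgam2 (0.947), and nearest to Tnnc1 were Mrpl16 (0.936), Psmd7 (0.933) and Polr2e (0.931). For Actc1 they were Coa4 (0.975), Bola3 (0.961) and Ergic1 (0.924), and for Tpm1 they were Aldoa (0.955), Tm2d2 (0.944) and Coq9 (0.942). Tpm2 was followed most closely by Lyar (0.913), Cwc27 (0.901) and Skiv2l2 (0.897), and Tnnt1 by Abcb10 (0.920), Rps18 (0.901) and Arap1 (0.875). Tnnt1 and Tnni3 lie 1922 bases apart on chromosome 7, both on the minus strand, and Tnni1 and Tnnt2 lie 25364 bases apart on chromosome 1, both on the plus strand.

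The other genes of the striated thin filament (12 of 13 tested; Neb, the nebulin gene, was too low) held 0 calls in limma in each comparison. At an unadjusted p under 0.05 the count was 0 for LD against TAC, 1 higher for TAC against Sham and 1 higher for LD against Sham. In both it was Acta1. Of all genes tested, 8.82%, 5.43% and 5.11% passed in either direction in the same order of comparisons. The Acta1 difference was 2.57 ± 0.44 for TAC against Sham (adjusted p 0.129 in limma) and 2.55 ± 0.44 for LD against Sham (adjusted p 0.145). Tpm3, a tropomyosin of slow muscle and many other cells, was at -0.47 ± 0.23 for LD against TAC without overlap. Lmod2, a leiomodin that lengthens thin filaments, was at 0.41 ± 0.23 for TAC against Sham. The median of the list was 0.17, 0.08 and 0.15 for LD against TAC, TAC against Sham and LD against Sham.

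Genes of the thick filament, on which the myosin motors sit, also held 0 calls among 5 tested. For LD against TAC, 4 of the 5 were higher at an unadjusted p under 0.05, as were 2.51% of all genes tested: the slow heavy chain Myh7 at 1.05 ± 0.33, the light chain Myl3 at 0.73 ± 0.28, the adult heavy chain Myh6 at 0.63 ± 0.24 and the myosin binding protein gene Mybpc3 at 0.58 ± 0.24. The thick filament genes took 5.21%, 5.50% and 7.40% of all FPKM in LD, 5.17%, 4.67% and 3.89% in TAC and 4.86%, 4.90% and 4.97% in Sham hearts. LD replicate 3 was the highest and TAC replicate 3 the lowest of the 9, the same libraries that stood apart over all genes. For TAC against Sham, Myh6 was lower at an unadjusted p of 0.0405 (-0.54 ± 0.24) and the list median was -0.05, and for LD against Sham the median was 0.53, with 2 of 5 higher at an unadjusted p under 0.05, where 1.52% of all genes were.

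Smooth muscle and cytoskeletal thin filament genes (10 tested) held 0 calls. For LD against TAC, Actb, the cytoplasmic beta actin, was at -0.71 ± 0.24 and Tpm4, a cytoskeletal tropomyosin, at -0.76 ± 0.29, both without overlap. The smooth muscle actin Actg2 was at 1.28 ± 0.54 in that comparison, with overlap. It was a low gene, at 5.52, 1.23 and 0.17 FPKM in TAC and at most 6.86 FPKM in any heart. Tpm4 was at 0.61 ± 0.29 for TAC against Sham, and Tagln, a smooth muscle actin-binding protein, at 0.73 ± 0.30 for LD against Sham without overlap. The list medians were -0.01, 0.17 and -0.01 in that order of comparisons. Transcription factors of sarcomere genes (10 tested) and kinases and phosphatases acting on the filament (10 tested) held 0 calls and 0 genes at an unadjusted p under 0.05 in every comparison. Of all genes tested, 8.82%, 5.43% and 5.11% passed in that order, so a count of 0 among 10 is near those shares. The medians were -0.09, -0.15 and -0.13 for the factors and -0.08, 0.09 and -0.04 for the enzymes. The smallest p in LD against TAC belonged to Tead1 (-0.45 ± 0.27), which binds the MCAT box, and Prkce (-0.60 ± 0.29), a protein kinase C.

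Skeletal muscle markers summed to 16.1 to 18.6 FPKM in LD, 19.9 to 41.5 FPKM in TAC and 15.4 to 19.6 FPKM in Sham hearts. The defining Myh1 and Myh2 were at 0 in every heart, and 4 of the 7 markers were below 1 FPKM in every heart. The sum was higher in all 3 TAC hearts than in every LD and Sham heart, at the closest 19.9 against 19.6 FPKM. Taken singly, 0 of the 7 markers had TAC above both other groups, beside 2.28% of all genes tested. The sums were led by 1 gene, Myl1, at 12.0 to 35.8 FPKM. They are of the size of the Tnnt1 values (6.75 to 23.7 FPKM) and above those of Tnni1 (at most 0.533 FPKM), and their part in those values was not tested. Atrial markers summed to 167 to 554 FPKM in LD, 99.1 to 451 FPKM in TAC and 66.0 to 102 FPKM in Sham hearts, with Bmp10 at 0 throughout and the sum led by Nppa, which ventricles also express under load. LD replicate 3 was the highest heart for Myl7 (42.3 FPKM, against at most 7.51 FPKM in the others), Myl4 (27.0 FPKM, against at most 7.22 FPKM) and Sln (8.02 FPKM, against at most 2.07 FPKM). Endothelial markers summed to 195 to 217 FPKM in LD, 193 to 243 FPKM in TAC and 192 to 235 FPKM in Sham hearts, and erythroid markers to 1017 to 1649 FPKM in LD, 1821 to 7923 FPKM in TAC and 416 to 2395 FPKM in Sham hearts. Their part in the values of the 8 genes was not tested.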

How the data were processed

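RNA sequencing was done on 9 hearts, 3 per group, from poly-A selected RNA per the labels' protocols. The authors deposited FPKM values per gene symbol. Per the submitters' processing notes the tools were CASAVA 1.8, fastp 0.20.0, HISAT2 2.1.0, Cufflinks 2.2.1, HTSeq 0.7.2 and DESeq with build GRCm38; which tool made the FPKM, the annotation and the handling of shared fragments were not stated. FPKM fix each library's total, so a few abundant genes can shift all others.

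Values were analysed as log2(FPKM + 1) for the 11380 genes with at least 1 FPKM in at least 3 of 9 libraries, 7 of the 8 members included. All 3 groups were fitted together in limma 3.58.1 (R 4.3.3; trended moderated test, Benjamini-Hochberg adjustment over all genes tested, adjusted p under 0.05). Fold changes on this scale understate those of low genes. Isoform ratios had an exact permutation test. The test was tried on simulated data. For all 16262 genes above 0, FPKM steps gave whole fragments (tolerance 0.001), which served for depth and for voom; 59.5% of 15593 implied gene lengths were within 25% of GENCODE M21. Of 21989 symbols, 5727 were 0 in every library.

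The members, the 5 gene lists and the marker lists were chosen with earlier results of these data known. Named genes were all members, up to 4 of each list by smallest p, and the 3 nearest patterns of each member. Alternatives were pseudocount, filter, scaling, fit, weights, replicate block, left-out libraries and voom; those on even counts were added after seeing the data.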

Additional observations from a re-analysis of the deposited data

How the results depend on the processing

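None of the 21 thin filament differences was called under any of the up to 21 alternatives, where the smallest adjusted p was 0.226; of 427 alternative values 382 kept their direction and 45 reversed. Tnni3 kept its direction in every alternative for LD against TAC (0.39 to 0.68) and TAC against Sham (-0.69 to -0.41). With the replicate number as a block, 0 of 7 members and 0 genes were called in each comparison. Same-numbered libraries correlated at -0.236 to 0.146 in their deviations from the group means. Libraries of different numbers were not compared in this way, so whether the numbers pair the samples cannot be told from these values. Counts of all genes called, 0 in each comparison as reported, were 9 (TAC against Sham) and 135 (LD against Sham) with array weights, 4 and 3 with voom (0 and 0 with the mostly even libraries halved), 10 (LD against Sham) with 2 groups in the fit, and 11 (TAC against Sham) within the mostly even libraries; leaving out 1 library gave 0 to 13 (TAC against Sham, 13 without TAC replicate 1) and 0 to 8 (LD against Sham, 8 without TAC replicate 1). The causes were not tested. Leaving out 1 library at a time, the differences that reversed ranged as follows. For LD against TAC they were -0.30 to 0.20 (Actc1), -0.01 to 0.39 (Tnnt2), -0.006 to 0.585 (Tnnc1), -0.62 to 0.21 (Tnnt1), -0.056 to 0.293 (Tpm1), -0.45 to 0.71 (Acta1/Actc1) and -0.20 to 0.54 (Tpm2/Tpm1). For TAC against Sham they were -0.052 to 0.318 (Actc1), -0.146 to 0.033 (Tnnt2), -0.176 to 0.017 (Tnnt1), -0.14 to 0.15 (Tpm1), -0.13 to 0.16 (Tnnt1/Tnnt2) and -0.14 to 0.41 (Tpm2/Tpm1). For LD against Sham they were -0.16 to 0.33 (Actc1), -0.075 to 0.327 (Tnnt2), -0.11 to 0.12 (Tnni3), -0.69 to 0.14 (Tnnt1), -0.02 to 0.28 (Tpm1), -0.37 to 0.15 (Tnni1/Tnni3) and -0.013 to 0.692 (Tpm2/Tpm1). Without LD replicate 3 and TAC replicate 3 together, LD against TAC became -0.48 (Actc1), -0.099 (Tnnt2), -0.059 (Tnnc1), -0.13 (Tpm1) and 0.66 (Tpm2/Tpm1), TAC against Sham 0.024 (Tnnt2), 0.147 (Tpm1) and -0.14 (Tpm2/Tpm1), and LD against Sham -0.16 (Actc1), -0.075 (Tnnt2), -0.11 (Tnni3) and 0.15 (Tnni1/Tnni3). Array weights gave 0.029 (Tnnt2), 0.052 (Tpm1) and -0.016 (Tpm2) for TAC against Sham and -0.15 (Tnni3) for LD against Sham. Median-of-ratios scaling gave 0.021 (Actc1, LD against TAC), and a pseudocount of 0.1 gave -0.11 (Tnni1/Tnni3, TAC against Sham). With the counting class as a term, LD against TAC was -0.013 (Tpm1) and LD against Sham -0.031 (Actc1), -0.019 (Tnni3) and -0.03 (Tpm1). Within the mostly even libraries Tpm1 was 0.031 for TAC against Sham. Within the other libraries TAC against Sham was 0.235 (Tnnt1) and -0.305 (Tpm2), and LD against Sham -0.079 (Actc1), -0.113 (Tnni3) and -0.078 (Tpm1). With 3 mice per group the standard errors of the members were 0.217 to 0.349 on the log2 scale, and all 3 LD libraries lay in 1 counting class.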
